A study of Mus musculus with 4 samples.

Results

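Small nucleolar RNAs (snoRNAs) and small Cajal body RNAs (scaRNAs) guide the chemical modification and processing of rRNA and spliceosomal RNA, and their genes are described here from the genome annotation of a study of RNA polymerase I (Pol I). The genes were chosen by name, as every row on chromosomes 1 to 19 and X whose symbol begins with Snord, Snora or Scarna and a number. They numbered 121 of 26036 gene loci on these chromosomes. The annotation listed them in 141 of its 50727 rows.

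The study profiled Pol I occupancy by CUT&Tag, in which an antibody brings a transposase to the bound protein, in C64 mouse embryonic stem cells. Of the 4 libraries, 2 came from cells given 500 nM auxin for 6 h and 2 from untreated control cells. Auxin triggers the degradation of proteins that carry an auxin-inducible degron. The labels name no such protein, no transgene promoter and no separate cultures, and occupancy values of the libraries were not analysed here. No difference between auxin and control cells is therefore given, and the sequencing depth is unknown. What follows are annotated positions on the mm10 build, which carry no replicate error, and differences between classes of genes were not tested because genes are not replicates.

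C/D snoRNAs carry the sequence boxes called C and D, bind the methyltransferase fibrillarin and mostly guide 2′-O-methylation of rRNA. H/ACA snoRNAs fold into hairpins followed by the H and ACA boxes, bind the pseudouridine synthase dyskerin and guide pseudouridylation. ScaRNAs have C/D boxes, H/ACA boxes or both, and act on spliceosomal RNAs in Cajal bodies. In mammals most of them have no promoter of their own. They lie in introns of other genes, the hosts, and are released by trimming of the spliced intron.

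By name, 75 of the 121 genes (62.0%) were C/D snoRNAs, 37 (30.6%) were H/ACA snoRNAs and 9 (7.44%) were scaRNAs. They stood on 20 chromosomes, with 18 genes on chromosome 7, 17 on chromosome 11 and 11 on chromosome 1, against 1 on chromosome 13. The plus strand held 61 of them. Each of the 121 intervals was the same, base for base, as that of the same symbol in the RefSeq gene table of assembly GRCm38.p6. That table names 142 symbols of this kind, and of the 21 that had no row on these chromosomes 15 were Snord116l copies. Snord116l1 and Snord116l2, the 2 listed copies of a tandem array in the imprinted Prader-Willi region, each had 10 identical rows, which were counted as 1 gene each.

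C/D genes were the shorter class. Their annotated length ranged from 28 to 221 bases, with a median of 68 bases and quartiles of 59.5 and 87 bases. H/ACA genes ranged from 56 to 198 bases, with a median of 120 bases and quartiles of 113 and 130 bases. The 9 scaRNA genes ranged from 42 to 275 bases, with a median of 118 bases. The classes overlapped at their edges: 5 of 75 C/D genes were over 110 bases long and 3 of 37 H/ACA genes were under 90 bases.

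**Figure D1:**
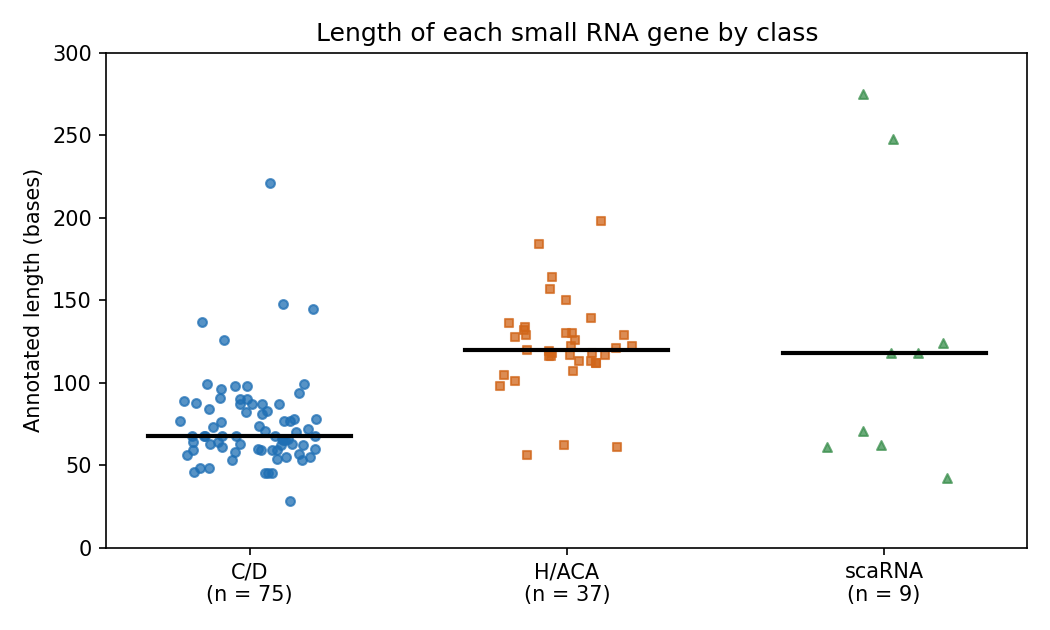
Annotated length in bases (vertical axis) of each C/D, H/ACA and scaRNA gene, 1 point per gene, with a black line at the class median. Most C/D genes lie near their median of 68 bases and most H/ACA genes near 120 bases, while 3 short H/ACA genes and 5 long C/D genes lie apart from their classes.

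The long C/D genes were Snord17 with 221 bases (chromosome 2, 144265982 to 144266202), Snord15a with 148 bases and Snord15b with 145 bases. Snord118 had 137 bases and Snord22 had 126 bases. Snord118 is U8, which acts in processing of the large subunit rRNAs. At the other end Snord98 spanned 28 bases, and Snord42a, Snord45b and Snord93 spanned 45 bases each. Among H/ACA genes, Snora19 spanned 56 bases, Snora20 spanned 61 bases and Snora61 spanned 62 bases, while the next longer one spanned 98 bases. Snora74a was the longest with 198 bases, followed by Snora23 with 184 bases and Snora81 with 164 bases. The scaRNA genes fell into a short set, with Scarna9 at 42, Scarna2 at 61, Scarna17 at 62 and Scarna10 at 71 bases, and a longer set from 118 bases (Scarna3a and Scarna8) to 248 bases (Scarna6) and 275 bases (Scarna13). Whether the short rows cover the whole RNA was not tested. RefSeq gives these genes the same ends, as it does for all 121 genes, which does not show whether the rows are complete.

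Sequence was at hand for parts of 7 genes, because each shares bases on the same strand with an annotated microRNA precursor. The sequences below are RNA letters from RefSeq (GRCm38.p6), 5′ to 3′, and show the boxes that define the classes. In the end pieces the capitals mark the ACA box. In Snord33 they mark UGAUGA, the core of the C box.
Snora36b: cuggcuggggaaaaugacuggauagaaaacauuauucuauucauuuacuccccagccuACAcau
Snora19: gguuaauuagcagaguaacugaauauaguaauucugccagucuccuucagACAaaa
Scarna13: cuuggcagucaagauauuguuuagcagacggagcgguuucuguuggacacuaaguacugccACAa
Scarna3a: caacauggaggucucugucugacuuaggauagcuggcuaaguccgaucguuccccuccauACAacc
Scarna3b: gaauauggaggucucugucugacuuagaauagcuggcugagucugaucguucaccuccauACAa
Snord33: agcuugUGAUGAgacaucucccacucau

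The Snora36b piece covers bases 50 to 113 of its 113 bases (chr1:185242975-185243038, plus strand), and the Snora19 piece is the whole annotated gene of 56 bases (chr19:60774330-60774385, minus strand). The Scarna13 piece covers bases 209 to 273 of 275 (chr12:105031077-105031141, minus strand). The ACA box stood 3 bases before the annotated 3′ end in these 3 genes, where the textbook description of the class puts it. In Scarna3a (bases 52 to 117 of 118, chr1:159340358-159340423, plus strand) 4 bases followed the box. In Scarna3b (bases 61 to 124 of 124, chr12:80391614-80391677, minus strand) 1 base followed it. Of several ACA matches in a piece, the one nearest to that place was taken. ACA is a common triplet: it started within the last 8 bases of 130 of 1005 microRNA precursors in the reference (12.9%), searched on the RNA strand. The Snord33 piece is the first 28 of its 82 bases (chr7:45126918-45126945, minus strand), with the C box core from base 7. The same letters in DNA, TGATGA, were found in the 28 bases after the start in 198 of 32851 promoter windows (0.603%) on the gene's strand and in 164 (0.499%) on the other strand.

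The overlapping precursors were Mir664 in Snora36b, Mir3084-2 in Snora19, Mir3069 in Scarna13, Mir1843b in Scarna3a, Mir1843a in Scarna3b, Mir1291 in Snora34 and Mir5121 in Snord33. MicroRNAs are short RNAs cut from hairpins that repress mRNAs through their seed, bases 2 to 8. Of the 7 precursors, 6 overlapped H/ACA or scaRNA genes and 1 a C/D gene. They shared between 28 bases (Snord33) and 73 bases (Snora34) with the gene, and Mir3084-2 covered Snora19 entirely. Mature miR-5121 is the first 21 bases of Snord33, so its seed reaches into the C box. The 5p arms of Mir1843a and Mir1843b, which lie in the related Scarna3b and Scarna3a, differ by 1 base in where they begin, which shifts the seed. The 3 mature sequences are given with the seed in capitals.
mmu-miR-5121: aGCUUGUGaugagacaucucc
mmu-miR-1843a-5p: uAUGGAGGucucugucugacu
mmu-miR-1843b-5p: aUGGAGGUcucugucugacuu

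A host was any gene of another name, microRNAs aside, with a transcript on the same strand that spans the small RNA gene from end to end. Hosts were found for 116 of the 121 genes (95.9%), against 4.23% of the other 25915 loci on these chromosomes. Of these, 114 (94.2% of 121) lay wholly inside 1 intron of a host transcript, against 3.26% of the other loci. By class, 72 of 75 C/D, 35 of 37 H/ACA and 7 of 9 scaRNA genes were intronic. None of the 114 host introns held more than 1 of these genes. No gene gained a host when the opposite strand was allowed as well. The 114 genes were spread over 83 hosts, of which 60 held 1 gene, 17 held 2, 4 held 3 and 2 held 4, counting only genes with a row.

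Snora24 and Snora57 lay inside a host but in no intron. The single transcripts of their hosts, the non-coding Snhg8 with 785 bases and 5730408K05Rik with 384 bases, have 1 exon each, and all 130 bases of Snora24 and all 150 bases of Snora57 fell in it. For 4 further genes, Snord1a, Snord7, Snord45c and Snora26, an intron of some host transcript held the gene and an exon of another covered or cut it.

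The 5 genes without a host were Snord118 (U8), Snord13 (U13), Snord89, Scarna2 and Scarna17. U8 and U13 are known in mammals as snoRNAs with promoters of their own. Snord118 (chromosome 11, 69073426 to 69073562) began 132 bases downstream of Tmem107 on the same strand. Snord13 (chromosome 8, 31149861 to 31149958) had its nearest same-strand neighbour, Mak16, 9509 bases upstream, and the divergent Tti2 only 357 bases away. Snord89 (chromosome 1, 39548747 to 39548840) lay 2455 bases downstream of Rnf149. Scarna2 (chromosome 3, 108554342 to 108554402) lay 2022 bases downstream of Tmem167b. Scarna17 (chromosome 18, 74778394 to 74778455) stood farthest from a same-strand gene, 160866 bases from Lipg, with Acaa2 on the other strand at 756 bases.

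The distance from the 3′ end of the small RNA to the next host exon was short for most of the C/D class. It ranged from 61 to 5160 bases with a median of 90.5 bases and quartiles of 75 and 219 bases, and no C/D gene came closer than 61 bases. In 42 of 72 C/D genes (58.3%) it lay between 50 and 99 bases. H/ACA genes were spread more widely, from 49 to 77876 bases with a median of 176 bases and quartiles of 81.5 and 352 bases, and 10 of 35 (28.6%) lay between 50 and 99 bases. The 7 intronic scaRNA genes ranged from 73 to 14882 bases with a median of 249 bases, and 2 of them lay between 50 and 99 bases. Among the host transcripts with the gene wholly inside 1 intron, the distance was the same for 110 of the 114 genes. Of the 114 genes, 78 had only 1 host transcript, so their distance could not differ. The exceptions were Snord2, Snord66, Snord52 (102 or 474 bases) and Snora5c (97 or 175 bases). Snord1a, Snord7, Snord45c and Snora26 have no such distance in the host transcripts whose exon covered or cut them, and those transcripts were left out.

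**Figure D2:**
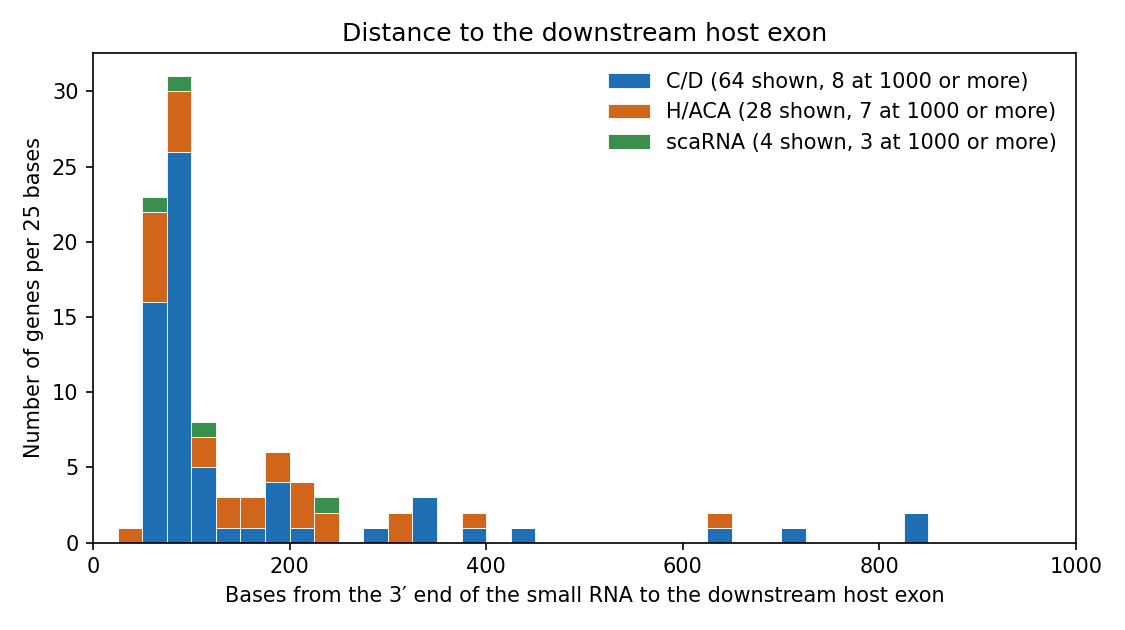
Number of genes (vertical axis) per 25 bases of distance from the 3′ end of the small RNA to the downstream host exon (horizontal axis, in bases), stacked by class. The highest bars stand between 50 and 100 bases and are mostly C/D genes, while 18 of the 114 genes lie at 1000 bases or more and are not drawn.

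Among the C/D genes nearest to their downstream exon were Snord16a in Rpl4 at 61 bases, Snord34 in Rpl13a and Snord69 in Gnl3 at 65 bases each, and Snord82 in Ncl at 66 bases. Ncl encodes nucleolin, a major nucleolar protein. The 5 farthest were Snord64 at 5160 bases, Snord71 at 3977 bases, Snord17 at 3957 bases, and Snord116l2 and Snord116l1 at 2058 and 2014 bases. Of these, Snord64, Snord116l1 and Snord116l2 share the host Snhg14, the long non-coding transcript of the Prader-Willi region. Without the 3 genes of Snhg14 the C/D median was 87 bases.

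The nearest H/ACA genes included Snora70 in Rpl10 at 51, Snora64 in Rps2 at 63, Snora31 in Tpt1 at 64 and Snora78 in Snhg9 at 68 bases. The farthest were Snora35 at 77876 bases, in an intron of 90779 bases of the serotonin receptor gene Htr2c, and Snora15 at 50287 bases in the chaperonin subunit gene Cct6a. Snora47 in Zbed3 (5319 bases), Snora36b in Rab3gap2 (3597 bases) and Snora52 in Rplp2 (2067 bases) came next. Snora15 and Snora52 lay close to the upstream exon instead, at 62 and 28 bases. Among scaRNA genes, Scarna8 in Haus6 stood 73 bases and Scarna10 in Ncapd2 79 bases from the downstream exon. Scarna9 in Cep295 stood 111 bases from it and Scarna13 in Snhg10 249 bases. Scarna6 in Atg16l1 (1057 bases), Scarna3a in Cop1 (2382 bases) and Scarna3b in Dcaf5 (14882 bases) were far from it.

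Across all introns 35 of 72 C/D genes (48.6%) and 15 of 35 H/ACA genes were nearer to the downstream than to the upstream exon. In the C/D class the distance from the upstream exon to the 5′ end of the RNA had a median of 158.5 bases with quartiles of 63 and 422.25 bases, and 24 of 72 genes (33.3%) lay between 50 and 99 bases from it. In the H/ACA class its median was 124 bases, below the downstream median of 176 bases. In introns under 300 bases both sides have to be short, and there 26 of 28 C/D genes lay 50 to 99 bases from the downstream exon and 19 of 28 from the upstream exon. In these short introns 6 of 28 C/D and 2 of 5 H/ACA genes were nearer to the downstream exon. In introns of 300 to 999 bases, where there is room, 14 of 28 C/D genes lay 50 to 99 bases from the downstream exon and 4 of 28 from the upstream exon, and 21 of 28 were nearer to the downstream exon. In the same introns 6 of 19 H/ACA genes lay 50 to 99 bases from the downstream and 3 of 19 from the upstream exon, and 10 of 19 were nearer to the downstream one. In introns of 1000 bases or more 2 of 16 C/D and 0 of 11 H/ACA genes lay at 50 to 99 bases from the downstream exon, and 8 of 16 and 3 of 11 were nearer to it than to the upstream exon.

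**Figure D3:**
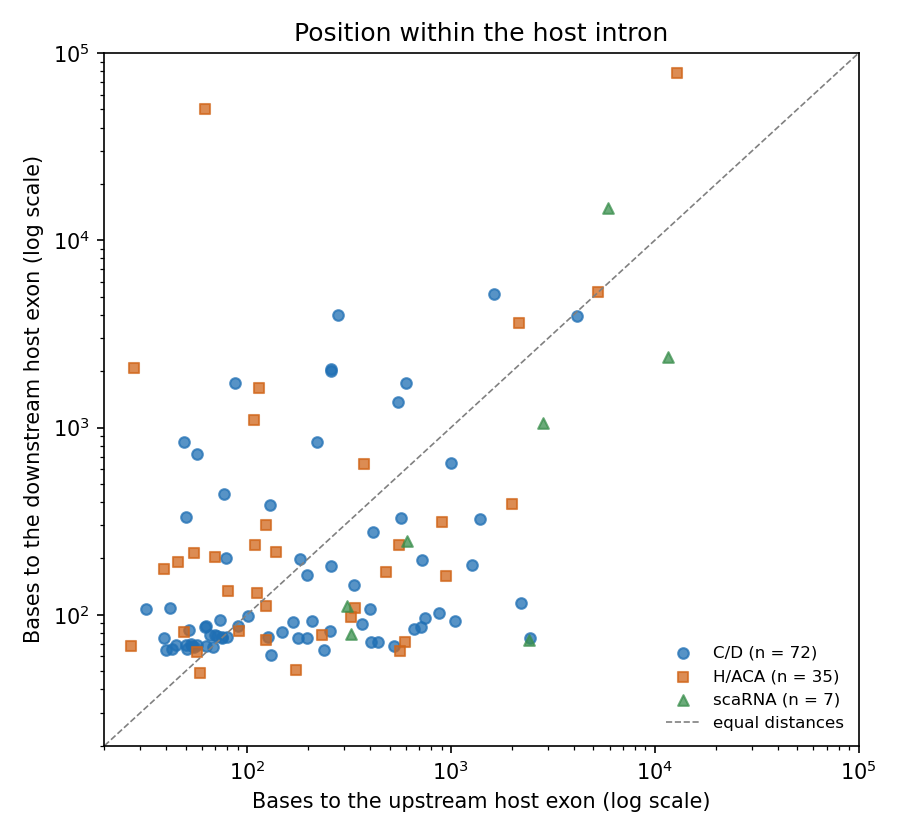
Distance in bases from the upstream host exon (horizontal axis) and to the downstream host exon (vertical axis) for each intronic gene, both on log scales, with a dashed line at equal distances. A flat band between 50 and 99 bases from the downstream exon, which spans a wide range of upstream distances, holds 42 of 72 C/D and 10 of 35 H/ACA genes, and the others of both classes scatter above it apart from 1 H/ACA gene at 49 bases.

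Intronic microRNA genes were rarely found at this distance. Of 1189 microRNA loci 615 were intronic by the same rule. Between 50 and 99 bases from the downstream exon lay 54 of 114 snoRNA and scaRNA genes (47.4%), against 2 of 615 microRNA loci (0.325%). Closer than 50 bases lay 1 of 114 snoRNA and scaRNA genes, against 214 of 615 microRNA loci, of which 204 touched the exon with 0 bases between. The share at 50 to 99 bases in introns of 300 to 999 bases was 21 of 49 snoRNA and scaRNA genes, against 0 of 83 microRNA loci. The median host intron measured 478 bases for the snoRNA and scaRNA genes, against 3878 bases for the microRNA loci.

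Whether the introns that held a snoRNA or scaRNA gene were shorter or longer than the other introns of their hosts depended on how hosts were weighted. Pooled over hosts, they measured 171 to 90779 bases with a median of 478 bases (n = 114), against 70 to 143764 bases with a median of 782.5 bases for the other 930 introns. Snhg14 gave 168 of those 930, and without it the medians were 472 and 589.5 bases. An intron was counted among the others when no snoRNA or scaRNA row lay in it. Genes without a row, such as 15 Snord116l copies named by RefSeq, could not be placed. Within hosts the direction was the opposite: of 77 hosts with both kinds of intron, the median intron with such a gene was the longer in 50 and the shorter in 27, with a median difference over hosts of 127 bases. These lengths include the small RNA gene itself, and the 121 genes had a median length of 83 bases. An intron that holds such a gene cannot be shorter than the gene. How much of the difference within hosts comes from this was not tested. By class the median host intron was 429.5 bases for C/D, 485 bases for H/ACA and 2605 bases for scaRNA genes. The RNA filled much of the smaller introns. Snora78 took up 62.3% of its 252-base intron in Snhg9 and Snord22 took up 52.5% of its 240-base intron in Snhg1, and the median over all 114 genes was 16.8%. The first intron held 14 genes and the last 18, counting 5 genes whose host transcript has a single intron under both.

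Of the host lists, ribosomal protein genes held the most small RNA genes, though other coding genes made up more hosts. Ribosomal protein genes held 35 of the 114 intronic genes (24 C/D and 11 H/ACA) in 24 host genes, out of 87 ribosomal protein symbols (Rack1 included) in the annotation. In these hosts the downstream distance ranged from 49 to 2067 bases with a median of 84 bases, and 22 of 35 genes lay at 50 to 99 bases. Rpl13a on chromosome 7 held 4 C/D genes in a transcript of 3183 bases, Snord32a in intron 2, Snord33 in intron 4, Snord34 in intron 5 and Snord35a in intron 6. They stood 108, 69, 65 and 109 bases from the next exon. Rpl23a held Snord42b, Snord4a and Snord42a in introns 1 to 3, at 72, 93 and 78 bases. Hosts with 2 genes each included Rps3, Rps12, Rps3a1, Rpl3 and Rack1. In Rps12 these were of different classes, with Snord100 at 76 bases and Snora33 at 73 bases from the downstream exon.

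**Figure D4:**
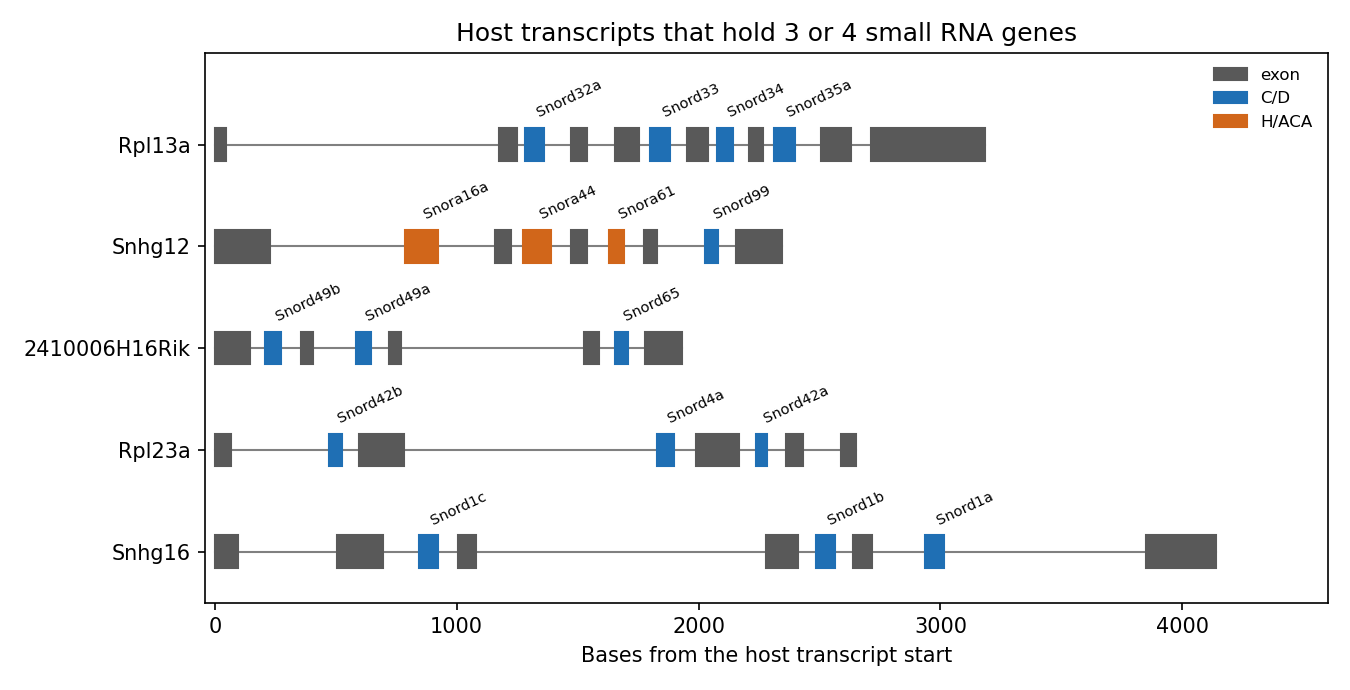
Transcripts of the 5 hosts with 3 or 4 snoRNA genes, apart from the very long Snhg14, drawn to scale from the transcript start (horizontal axis, in bases), with exons in grey and snoRNA genes coloured by class. Each snoRNA gene has an intron to itself, and in Snhg12 all 4 introns hold one.

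Hosts without a coding transcript were fewer. Genes of the Snhg family (small nucleolar RNA host genes) and Gas5 held 19 intronic genes, 11 C/D, 7 H/ACA and 1 scaRNA. Of 18 Snhg and Gas5 symbols in the annotation, 12 held at least 1 gene, Snhg8 with its exonic Snora24 included. Other hosts with no coding transcript held 9 genes. In all, 28 of 114 genes (24.6%) lay in hosts without a coding transcript, with a median distance of 84 bases to the downstream exon, against 110 bases for the 86 genes in hosts with one. Snhg12 on chromosome 4 held Snora16a, Snora44, Snora61 and Snord99 in introns 1 to 4, at 237, 81, 82 and 75 bases from the next exon. Its exons add up to 606 bases in a transcript of 2347 bases. Snhg16 held Snord1c, Snord1b and Snord1a at 81, 76 and 835 bases, and 2410006H16Rik held Snord49b, Snord49a and Snord65 at 86, 75 and 68 bases. Snhg14 spans 1177441 bases in 172 exons, and Snord64, Snord116l1 and Snord116l2 lay in its introns 17, 31 and 38. Gas5 held Snord47, the only snoRNA gene placed in it here, in intron 9 at 68 bases.

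**Figure D5:**
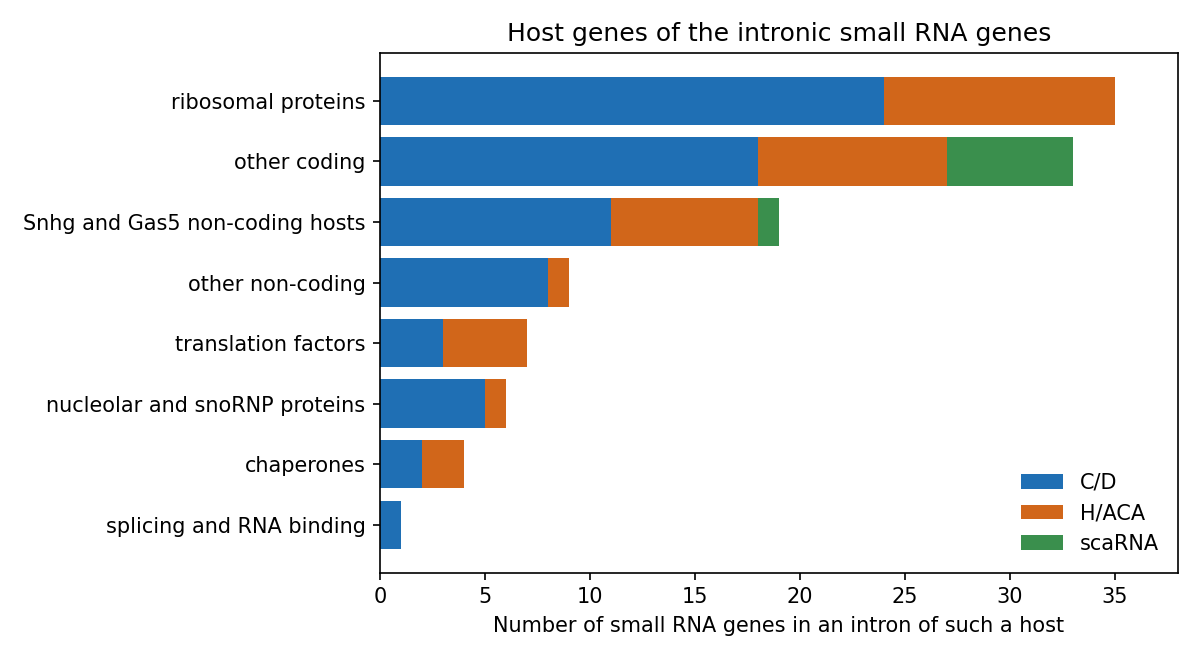
Number of intronic small RNA genes (horizontal axis) by type of host gene (rows), stacked by class. Ribosomal protein hosts hold 35, other coding hosts 33 and the Snhg and Gas5 hosts 19, and the scaRNA genes lie almost all in other coding hosts.

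Translation factor genes held 7 genes in 6 hosts, out of 83 Eif, Eef and Pabp symbols in the annotation. Eif4a2, an RNA helicase of cap-dependent initiation, held Snord2 in intron 3 at 99 bases (964 bases in another Eif4a2 transcript) and Snora81 in intron 7 at 192 bases. Snord37 lay in the elongation factor gene Eef2 at 67 bases, Snord66 in Eif4g1 at 94 (115 in another transcript), Snora41 in Eef1b2 at 112, Snora19 in Eif3a at 312 and Snora28 in Eif5 at 638 bases. Chaperone genes held 4 genes. Hspa8, the constitutive Hsp70, held the U14 genes Snord14c and Snord14d in neighbouring introns of 210 and 222 bases, at 70 and 83 bases from the next exon, and Snord14a, another U14 gene, lay in Rps13 at 72 bases. The chaperonin gene Tcp1 held Snora20 at 300 bases and Cct6a held Snora15. The splicing and RNA-binding list held 1 gene, Snord111 in Sf3b3, at 185 bases.

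Among listed genes for snoRNA-bound proteins, assembly and transport, the 2 hosts found were in the C/D core list. Hosts are few in the annotation, 83 of intronic genes beside 25915 loci that are not snoRNA or scaRNA genes. In lists this short, 0 hosts are therefore not read as a difference between lists. All 4 C/D core protein genes (Fbl, Nop56, Nop58 and Snu13) had a row, and 2 were hosts. Nop56 held Snord110 at 89 bases and Snord57 at 67 bases from the downstream exon, and Nop58 held Snord11 at 722 bases and Snord70 at 326 bases. All 4 H/ACA core protein genes (Dkc1, Nop10, Nhp2 and Gar1) had a row and 0 were hosts of the genes described here. Of 10 assembly factors 9 had a row, with none for the symbol Nopchap1, and all 7 Cajal body and transport factors had one, among them Coil and Wrap53. None of these was a host. Ncl held a C/D and an H/ACA gene, Snord82 in intron 5 at 66 bases and Snora75 in intron 12 at 134 bases. Ncl, Nop56 and Nop58 made up the hosts of the nucleolar and snoRNP list, with 6 genes.

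Other coding genes held 33 genes in 28 hosts, among them 6 of the 7 intronic scaRNA genes. Here the median distance was 330 bases, and 9 of 33 genes lay at 50 to 99 bases. Those with 2 genes each are given here. Some hosts of this list also act in the nucleolus, among them Gnl3 and Wdr43, which are picked out after their values were seen. Gnl3, which encodes nucleostemin, held Snord19 at 834 bases and Snord69 at 65 bases. Wdr43, a ribosome biogenesis factor, held Snord92 at 643 bases and Snord53 at 330 bases. Kansl2 held Snora2b at 1635 bases and Snora34 at 169 bases, and Rabggtb held Snord45b at 200 bases and Snord45c at 96 bases. The gene 2410002F23Rik held Snord88c at 82 bases and Snord88a at 87 bases. Of the 23 hosts with 2 or more genes, 4 held more than 1 class: Snhg12, Rps12, Ncl and Eif4a2.

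The starts of the hosts were compared with a feature known from ribosomal protein mRNAs, the 5′ terminal oligopyrimidine (TOP) start, which couples translation to growth signals. It was searched, on the gene's strand, as a C within 5 bases of the annotated start followed by at least 4 bases that are C or T. This search was added after the sequences had been seen. RefSeq promoter windows were at hand for 72 of the 85 hosts, the hosts of Snora24 and Snora57 included. The run was found in 12 of 18 non-coding hosts (66.7%), against 1951 of 9533 lncRNA genes (20.5%). In Snhg9 and Snhg10, both among the 12, a run of 5 bases began 5 bases before the annotated start and ended upstream of it. Among hosts with a coding transcript the run was found in 14 of 54 (25.9%), close to the 21.5% of 17492 protein-coding genes. Ribosomal protein hosts had it in 7 of 17 (41.2%), against 24 of 49 other ribosomal protein genes (49.0%). The search thus left out many genes of the family known for this start, and matched 5718 of all 27025 genes with a window (21.2%). A match or its absence is therefore not read as the presence or lack of a TOP start. The following 50-base DNA windows of non-coding hosts, 25 bases on either side of the annotated start, show the run in capitals.
Snhg12: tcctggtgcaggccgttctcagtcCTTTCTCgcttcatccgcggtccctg
Gas5: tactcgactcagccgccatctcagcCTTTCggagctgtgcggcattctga
Snhg7: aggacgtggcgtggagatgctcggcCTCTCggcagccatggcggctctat
Snhg8: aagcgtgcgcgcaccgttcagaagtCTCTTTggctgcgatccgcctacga
2410006H16Rik: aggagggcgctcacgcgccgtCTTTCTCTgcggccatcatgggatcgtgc
Snhg1: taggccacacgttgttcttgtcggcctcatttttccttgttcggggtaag

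These windows lie at chr4:132308653-132308702 (Snhg12, plus strand), chr1:161035141-161035190 (Gas5, plus strand), chr2:26640220-26640269 (Snhg7, minus strand) and chr3:123508312-123508361 (Snhg8, minus strand). The other two lie at chr11:62602852-62602901 (2410006H16Rik, plus strand) and chr19:8723462-8723511 (Snhg1, plus strand). Snhg1 is shown as a host without a match. Gas5 has a second annotated start without a match, and a gene was counted when any of its starts matched.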

How the data were processed

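The one table analysed is an annotation of the whole series in 12-column BED layout. Its score, as deposited by the authors, was 0 in all 50727 rows and measures nothing. The other numeric columns are positions and exon numbers. The submitters' processing notes name mm10 as build and, without their roles, bedtools, deepTools, Bowtie2 and FastQC, and how the annotation was made is not given in the sources used here. Python 3.11.15 was used with numpy 2.4.6, pandas 2.3.3 and, for figures, matplotlib 3.10.9. Rows of 1 symbol, contig and strand that share a base were merged. Among host transcripts with the gene wholly inside 1 intron, the one with the largest summed exon length was used, and introns were numbered from the 5′ end. Distances are the bases between gene and exon. The routine was tested on simulated data.

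Genes named were, per class, the 3 shortest and longest, the 5 nearest to and farthest from the downstream exon, those without a host or in an exon, hosts with 3 or more genes and up to 6 hosts per list. Others are given for context. The genes, lists and rules were chosen with earlier results of these data known. The planned comparison of Pol I occupancy was not run, as the table holds no value per library. Some genes that this rule names are not reported here.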

Additional observations from a re-analysis of the deposited data

How the results depend on the processing

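No paired analysis was possible because an annotation of gene positions has no measurement for any of the 4 libraries. Of 50 values recomputed under alternatives, 44 stayed within 10% of the reported value, or for counts within 1.5 times. These 44 include 6 that could not differ because 0 genes overlap another, and 3 with summed exon length that equal the reported value. Taking the host transcript with the shortest intron or the most exons could not change the count of intronic genes. Those choices and the smallest distance gave only the reported values, and had little room to differ, as 78 of the 114 intronic genes had only 1 host transcript. The pooled median of introns with a small RNA gene minus that of the other introns was -304.5 bases, -117.5 bases without Snhg14, and reversed to 127 bases as the median of differences within hosts. Requiring a coding host transcript left 86 of the 114 intronic genes, gave a scaRNA median distance of 584 bases, against 249 bases as reported, and put 8 genes in a first intron, against 14 as reported. With 1 value per host, the median host intron was 538 bases, against 478 bases as reported, and 7 hosts had the first intron as their median. The C/D median distance stayed between 87 and 93 bases and the H/ACA median between 172.5 and 176 bases under all alternatives run. Leaving out H/ACA genes under 90 bases or the genes of Snhg14, and comparing introns within hosts, were alternatives chosen after seeing the data. The scaRNA values rest on 7 genes. All distances depend on the annotated ends of short rows.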

Other observations

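Some of the genes had copies on alternate or patch contigs, which allows the same intron to be measured again. There were 10 such copies, of Snord7, Snord52, Snord85, Snord95 and Snord96a. All 10 had the same length as on the assembled chromosome and lay in an intron of the same host. The downstream distance was the same in 9 of 10, and the upstream distance in 5 of 10. Snord7, in AA465934, stood 115 bases from the downstream exon in all 3 copies and on the assembled chromosome, while its upstream distance was 2189, 2194 and 2203 bases in the copies, against 2206 bases on the assembled chromosome. Snord52, in 1110038B12Rik, had 102 bases downstream in its 3 copies, and its upstream distance was 921 bases in 2 of them, against 876 bases on the assembled chromosome. Snord95, in Rack1, was the exception, with 195 bases downstream in the copy, against 197 bases on the assembled chromosome. Both copies of Snord85 (1723 bases downstream, 87 bases upstream) and the copy of Snord96a had the same distances on both sides. The upstream differences were all in Snord7 and Snord52, where the upstream stretch is much the longer and has more bases that can differ. The counts of 9 and 5 of 10 are therefore not read as a difference between the sides. Differences between the copies and the assembled chromosomes were not tested.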
